A study of Mus musculus with 4 samples.

Results

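The hyaluronan network of cartilage was described through 10 of the 24532 genes in the deposited expression table. These were the hyalectans Acan and Vcan, the link proteins Hapln1 and Hapln3, the hyaluronan synthases Has1, Has2 and Has3, the hyaluronan receptor Cd44, the hyaluronan-binding protein Tnfaip6 and the basement membrane proteoglycan perlecan (Hspg2). They were chosen by symbol for their known roles, and all 10 were above 0 in each library. Expression was measured by RNA sequencing of knee cartilage from wild type C57BL/6 mice in 4 groups, which were young and adult mice, each as sham and as injured. The study asked how the early response to cartilage injury differs between young and adult mice.

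Young means 3 weeks old. Adults were 12 weeks old in the sample titles, 14 weeks old in the age label and 10 weeks old in the study's methods. Injured cartilage was collected on day 3, and the adult sham label covers days 3 to 14. The titles name DMM surgery, the destabilization of the medial meniscus, whereas the study's methods describe full-thickness cartilage injury (FTCI), a needle defect in the patellar groove of male mice. Each group was 1 library from a pool of 10 injured or 5 uninjured mice, so that no difference has a replicate check and no test was made. The label gives chondrocytes as the cell type, but whole dissected cartilage was extracted and no sorting of cells is described.

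Hyaluronan is a long unbranched sugar chain that is spun out at the cell surface by the synthases from UDP-glucuronic acid and UDP-N-acetylglucosamine. In cartilage many aggrecan molecules bind side by side along 1 chain, each held by a link protein, and the charged chondroitin sulfate on aggrecan draws in the water that lets the tissue bear load. Cells hold this coat through the receptor CD44, and TSG-6, the product of Tnfaip6, transfers protein chains onto hyaluronan in inflamed tissue.

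After injury the members did not move as a group. Cd44 and Tnfaip6 were higher in injured cartilage at both ages. On the log2 scale of FPKM + 1, Acan, Vcan and Has1 passed a 2-fold higher level after injury in the adult but not in the young pair of libraries, and the age difference was not tested. Vcan fell short of 2-fold in the adult pair after rescaling, and Has1 exceeded 2-fold in the young pair when FPKM were divided without the added 1. Against young sham in place of adult sham, adult injured cartilage was at 0.46 for Acan, -1.18 for Vcan and 2.67 for Has1. Hapln3 passed a 2-fold lower level after adult injury, with a log2 ratio of -0.77 after young injury, Has2 was at -0.58 and -0.65, young first, and Hspg2 stayed within 0.2. Between the shams, Vcan and Hapln1 were more than 2-fold lower in adult cartilage, and so was Tnfaip6 when FPKM were divided without the added 1. On the log2 scale of FPKM + 1 Tnfaip6 was short of 2-fold, at -0.70, or -0.44 after rescaling.

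Sequence of the promoter windows is shown for Tnfaip6, Cd44 and Has1, the 3 members with the largest ratio of injured to sham in adult mice, since these genes were higher together. Capitals mark letters of a searched transcription factor motif. Sequences are from RefSeq windows on GRCm38.p6, read 5′ to 3′ on the strand of the gene, and stop before the first GENCODE exon of the window, and for Has1 only 30 bases around the motif are shown. The lines cover chr2:52037863-52038008 on the plus strand for Tnfaip6, chr17:17855253-17855282 on the minus strand for Has1 and chr2:102901670-102901915 on the minus strand for Cd44.
Tnfaip6: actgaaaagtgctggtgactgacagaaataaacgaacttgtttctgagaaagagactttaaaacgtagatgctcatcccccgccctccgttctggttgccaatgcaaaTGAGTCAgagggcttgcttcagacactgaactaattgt
Has1: cagacttgtccTGACGTCAgccctcctcca
Cd44: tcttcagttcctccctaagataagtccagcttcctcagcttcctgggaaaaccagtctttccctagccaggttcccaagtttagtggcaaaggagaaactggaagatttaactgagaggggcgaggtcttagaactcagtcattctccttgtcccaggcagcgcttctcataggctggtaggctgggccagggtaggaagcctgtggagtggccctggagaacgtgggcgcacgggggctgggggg

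Windows of 250 bases before to 50 bases after a RefSeq transcript start were found for 8 of the 10 members, all but Has2 and Has3. Both strands were searched for 6 motifs, and positions are counted from that start, which for Has1 and Hapln3 lies inside the gene extent given with their levels. The AP-1 motif TGANTCA, found in 7.81% of all 32851 windows, began at -142 in the Tnfaip6 window. The CRE motif TGACGTCA, found in 1.79% of windows, began at -83 in the Has1 window, and the C/EBP motif TTGCNNAA, found in 10.8% of windows, began there at -4. The CRE letters of Has1 lie outside the GENCODE exons, and the C/EBP letters overlap its first GENCODE exon. The SOX motif AACAAT and the TATA motif TATAAA, found in 10.7% and 13.6% of windows, overlapped in the Hapln3 window at -235 and -239. The windows of Cd44, Acan, Vcan, Hapln1 and Hspg2 held none of the 6 motifs, and the 10-letter NF-kB motif, found in 1.63% of windows, was in no member's window. A match describes the letters only.

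Values are FPKM, fragment numbers divided by transcript length and by library depth, which allow levels to be set side by side between genes. Differences are log2 ratios of FPKM + 1, a scale that understates the change of low genes, and a gene counted as changed when this ratio reached 2-fold. The adult sham library stood apart from the other 3, with Neat1 at 0.828 FPKM against 234 to 518 FPKM elsewhere and 26.5% of the summed FPKM in its 10 most abundant genes against 14.7% to 17.5%. Over the 10891 genes that reached 1 FPKM everywhere, young injury had a median log2 ratio of -0.04, adult injury of 0.23 and adult against young sham of -0.30, and median-of-ratios scaling moved these to -0.05, -0.06 and 0.07. Most log2 ratios and counts against the adult sham library are therefore given with the rescaled value beside them, while levels are FPKM as deposited. Both adult sham comparisons share this library, both young comparisons share the young sham library, and their values are not independent.

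By count, 2 members were at least 2-fold higher and 0 lower after injury in young mice, where 4.57% of the 18181 genes above 0 in any library were higher and 1.27% lower, 5.83% either way. In adult mice 5 were higher and 1 lower, against 6.9% and 1.46% of all genes, 8.37% either way, and the 5 became 4 after rescaling. In adult against young sham cartilage 0 members were higher and 2 lower, against 2.66% and 10.6% of all genes, 13.3% either way, and 2 were higher and 2 lower after rescaling. Between adult and young injured cartilage 1 was higher and 1 lower, against 1.8% and 3.09%, 4.89% either way, and the lower call, Hapln1, was lost with TPM and with quantile normalization. The shares are for FPKM as deposited, so the counts after rescaling cannot be set against them. The median over the members was -0.02 for young injury, 0.79 for adult injury, or 0.48 after rescaling, -0.42 for the shams, or -0.16 after rescaling, and -0.10 for the injured libraries, where the median of all genes tested was 0, 0.14, -0.15 and -0.04, and 0 for both adult sham comparisons after rescaling.

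**Figure D1:**
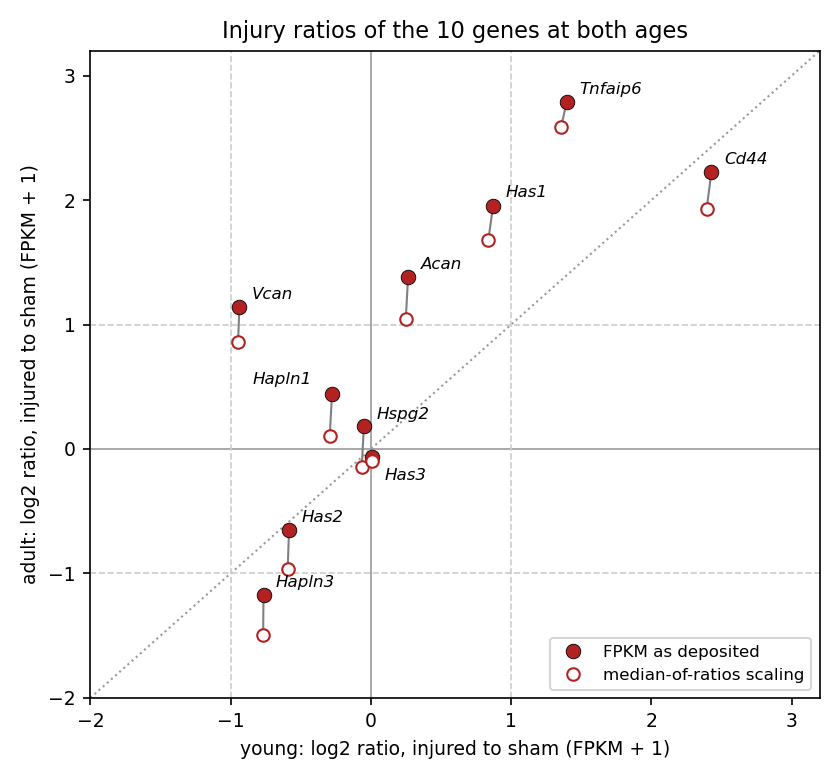
Log2 ratio of FPKM + 1 of injured against sham cartilage for each member, with young mice on the horizontal and adult mice on the vertical axis and dashed lines at 2-fold. Filled points are FPKM as deposited and open points are after rescaling. Among the filled points Cd44 and Tnfaip6 lie past 2-fold on both axes, Acan, Vcan, Has1 and, downward, Hapln3 on the adult axis alone, and Vcan is the member with the largest difference of sign, at -0.94 and 1.14.

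Aggrecan and link protein were the most abundant members in every library. Acan, the main cartilage proteoglycan, lies on chromosome 7 from 79053226 to 79115099. It was at 405 FPKM in young sham and 487 in young injured cartilage, and 214 and 559 FPKM in the adult sham and injured libraries. Adult sham cartilage held the lowest level and adult injured cartilage the highest. Its log2 ratio of injured against sham was 0.26 for the young pair of libraries and 1.38 for the adult pair, or 1.04 after rescaling. Against the young sham library the ratio of the adult injured library was 0.46, a comparison chosen after the values were seen. Between the shams it was -0.92, or -0.48 after rescaling, and between the injured libraries it was 0.20. In a pool of tissue, fewer cells of a type and less RNA per cell cannot be told apart.

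Versican, the product of Vcan, is the larger hyalectan of loose and developing matrix, and its gene lies on chromosome 13 from 89655309 to 89743027. Its level was 22.7 FPKM in young sham, then 11.4 after injury, and 3.77 FPKM in adult sham, then 9.50 after injury. The levels of the injured libraries lay close together, and the sham libraries lay on either side of them. The young injury ratio of -0.94 was just short of the 2-fold threshold, and the adult injury ratio was 1.14, or 0.86 after rescaling. The shams differed by -2.32, or -1.94 after rescaling, the largest difference of any member between them, and the injured libraries by -0.24. When the young sham library took the place of the adult sham library, a comparison chosen after the values were seen, the adult injured library was lower for Vcan, at -1.18.

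Hapln1 encodes the cartilage link protein, which locks aggrecan to hyaluronan, and lies on chromosome 13 from 89540529 to 89611832. Its level was 847 FPKM in young sham and 699 in young injured cartilage, and 234 and 317 FPKM in the adult sham and injured libraries. Both young libraries were above both adult libraries. The log2 ratio was -1.85 between the shams, -1.42 after rescaling, and -1.14 between the injured libraries, or -0.96 with TPM and -0.93 with quantile normalization. After injury it was -0.28 in young mice and 0.44 in adult mice, the latter 0.10 after rescaling.

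Hapln3, a link protein made outside the nervous system in many tissues, lies on chromosome 7 from 79117027 to 79133173. It was at 8.49 FPKM in young sham, then 4.58 after injury, and 16.6 FPKM in adult sham, then 6.79 after injury. Each injured library was below the sham of its age, and each adult library was above the young library of the same treatment. The injury ratio was -0.77 for the young and -1.17 for the adult pair, with -1.49 after rescaling. Against the young sham library the ratio of the adult injured library was -0.28, a comparison chosen after the values were seen. Between the shams it was 0.89, which passed the threshold at 1.3 after rescaling.

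Each of the 4 hyalectans of the mouse genome sits beside a link protein gene, and the values differed within each measured pair. Acan and Hapln3 are separated by 1927 bases and Hapln1 and Vcan by 43476 bases on GRCm38.p6, with 0 protein-coding genes between. The brain hyalectans and link proteins, Bcan with Hapln2 and Hapln4 with Ncan, are also neighbours and summed to only 1.35 to 1.70 FPKM per library. After adult injury Acan was higher and Hapln3 lower, and Hapln3 was the member of its pair that was higher in adult sham. Hapln1 and Vcan were both lower in adult sham than in young sham cartilage, but the Vcan ratio of the injured libraries was -0.24 against -1.14 for Hapln1.

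**Figure D2:**
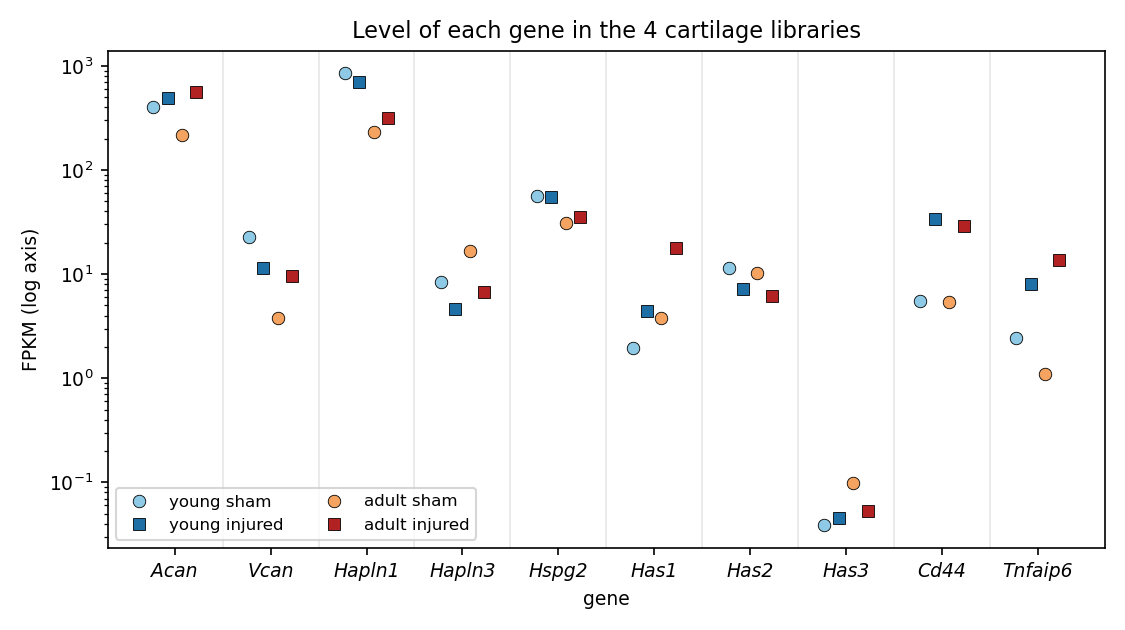
Levels of the 10 members in FPKM on a log axis, with 1 point for each of the 4 libraries. Acan and Hapln1 sit above every other member in each library, Has3 stays under 0.1 FPKM, and Acan, Has1, Cd44 and Tnfaip6 have both injured points above both sham points.

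Perlecan (Hspg2) is the large heparan sulfate proteoglycan of basement membranes and of the matrix close to chondrocytes, and it lies on chromosome 4 from 137468751 to 137570630. Its level was 56.4 FPKM in young sham and 54.4 in young injured cartilage, and 30.8 and 35.1 FPKM in the adult sham and injured libraries. Age separated the libraries and injury did not. The log2 ratio was -0.05 after young injury and 0.19 after adult injury, and the adult sign turned to -0.14 after rescaling. Between the shams it was -0.85, or -0.43 after rescaling, and between the injured libraries -0.62.

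Has1 and Has2 differed from sham in opposite directions after injury. Has2, the synthase that makes most of the long hyaluronan of cartilage, lies on chromosome 15 from 56665627 to 56694546. It was at 11.4 FPKM in young sham, then 7.27 after injury, and 10.2 FPKM in adult sham, then 6.14 after injury. Both injured libraries were below both shams. The injury ratio was -0.58 for the young and -0.65 for the adult pair, with -0.96 after rescaling. Between the shams it was -0.15, and its sign turned to 0.26 after rescaling.

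Has1, a synthase known to respond to inflammatory cytokines, lies on chromosome 17 from 17833691 to 17855589. It was at 1.95 FPKM in young sham and 4.39 in young injured cartilage, and 3.83 and 17.7 FPKM in the adult sham and injured libraries. Adult injured cartilage stood clear of the other 3 libraries. The FPKM of injured over sham cartilage was 2.26-fold in young and 4.63-fold in adult mice, and on the log2 scale of FPKM + 1 these were 0.87 and 1.95, with 1.68 in the adults after rescaling. Adult injured exceeded young injured cartilage by 1.80, and the shams differed by 0.71, or 1.05 after rescaling.

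Has3, the remaining synthase, lies on chromosome 8 from 106870242 to 106882902. It was at 0.0388 FPKM in young sham, then 0.0451 after injury, and 0.0988 FPKM in adult sham, then 0.0527 after injury. At these levels no difference was readable, and its log2 ratios lay between -0.06 and 0.08, or -0.09 and 0.12 after rescaling.

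The balance of the synthases can be read within each library, where scaling between libraries has no effect. These ratios were chosen after the values were seen. Has1 made up 14.5% of the summed synthase FPKM in young sham and 37.5% in young injured cartilage, against 27.1% and 74.1% in the adult libraries. The share of Has2 was 85.2%, 62.1%, 72.2% and 25.7% in the same order, so that Has1 exceeded Has2 in adult injured cartilage and in no other library. The sum of the synthases was 13.4 FPKM in young sham and 11.7 in young injured cartilage, and 14.1 and 23.9 FPKM in the adult sham and injured libraries. The antisense gene Has2os overlaps Has2 and was at 3.40, 2.29, 2.56 and 4.44 FPKM in that order, and Spaca6 overlaps Has1 on the opposite strand and was at 8.44, 7.24, 3.78 and 8.21 FPKM. The kit was strand-specific, but how the counting used strand is not given in the sources used here, so a part of either value may belong to the overlapping gene.

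The same kind of ratio for the aggregate itself was lower for link protein. There were 2.09 FPKM of Hapln1 per FPKM of Acan in young sham and 1.43 in young injured cartilage, against 1.09 and 0.567 in the adult libraries. Injured was below sham at each age, and adult was below young for each treatment. Against Col2a1, the main collagen of cartilage, Hapln1 kept to 0.0736 to 0.0906 FPKM per FPKM of Col2a1 in all 4 libraries. Acan was at 0.0433, 0.0616, 0.0676 and 0.149 FPKM per FPKM of Col2a1 in the same order. Col2a1 was itself lower in the adult libraries. In FPKM, adult over young injured cartilage was 1.15-fold for Acan and 0.454-fold for Hapln1.

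**Figure D3:**
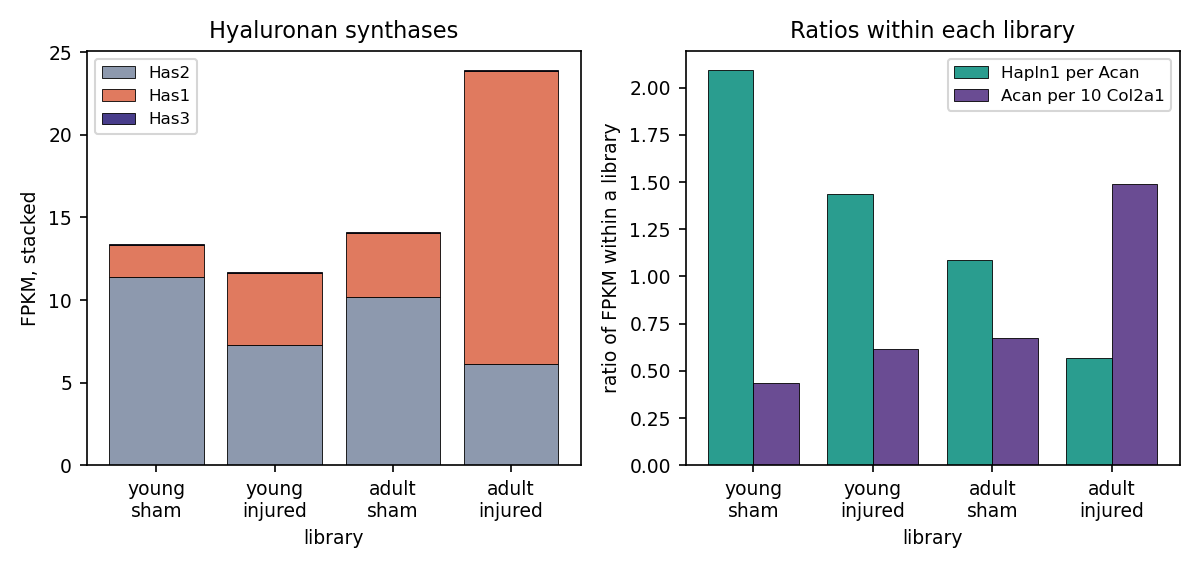
Ratios taken within each library, with bars for each library. The left panel stacks the FPKM of Has2, Has1 and Has3 per library, and the right panel gives FPKM of Hapln1 per FPKM of Acan and of Acan per 10 FPKM of Col2a1. Has1 takes 74.1% of the stack in adult injured cartilage, and Hapln1 per Acan runs from 2.09 in young sham to 0.567 in adult injured cartilage.

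CD44, the main cell surface receptor for hyaluronan, is also abundant on leukocytes. Its gene lies on chromosome 2 from 102811141 to 102901669. Cd44 was at 5.51 FPKM in young sham, then 34.0 after injury, and 5.43 FPKM in adult sham, then 29.0 after injury. The shams had close FPKM, with a log2 ratio of -0.02 that became 0.36 after rescaling, and both injured libraries were far above them. The FPKM of injured over sham cartilage was 6.17-fold in young and 5.34-fold in adult mice, which is 2.43 and 2.22 on the log2 scale of FPKM + 1, with 1.93 in the adults after rescaling. Among the members Cd44 had the largest ratio of the young comparison and the second largest of the adult comparison.

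Tnfaip6 lies on chromosome 2 from 52038113 to 52056681. It was at 2.42 FPKM in young sham and 8.0 in young injured cartilage, and 1.11 and 13.5 FPKM in the adult sham and injured libraries. Adult cartilage held both the lowest and the highest level. The FPKM of injured over sham cartilage was 3.30-fold in young and 12.2-fold in adult mice, or 1.39 and 2.79 on the log2 scale of FPKM + 1, with 2.59 in the adults after rescaling. The injured libraries differed by 0.69 and the shams by -0.70, or -0.44 after rescaling.

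Markers of other cells were also higher in the injured libraries in which Cd44 and Tnfaip6 were high. Of 12 macrophage markers, 11 were at least 2-fold higher after injury in young mice and 11 in adult mice, before and after rescaling, and their summed level was 193 FPKM in young sham, then 1919 after injury, and 327 FPKM in adult sham, then 1663 after injury. Neutrophil markers were higher for 3 of 10 in young mice, 2 after rescaling and 0 after quantile normalization, and for 1 of 10 in adult mice under each scaling, with sums of 1108, 2283, 1530 and 1786 FPKM. Endothelial markers were higher for 5 of 8 at each age, with 4 in the adults after rescaling and 3 after quantile normalization, and with sums of 28.9, 85.8, 43.0 and 79.8 FPKM. Fibroblast and synovial markers were higher for 5 of 10 in young and 6 of 10 in adult mice, 5 after rescaling, and 1 was lower in young mice, with sums of 4632, 6947, 6043 and 11592 FPKM. The marker that was lower was Prg4, the lubricin gene, at 2049 and 421 FPKM in the young and 3565 and 2658 FPKM in the adult libraries, sham first. The median of the macrophage list was 3.17 in young and 1.98 in adult mice, the latter 1.68 after rescaling. No macrophage, neutrophil, endothelial or fibroblast marker was listed at 0 in any library, and the T and B cell markers summed to 11.2 to 73.6 FPKM. Their part in the Cd44, Tnfaip6 and Has1 values was not tested.

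The labelled cell type was checked on 15 chondrocyte markers. Col2a1 was at 9349 FPKM in young sham and 7903 in young injured cartilage, and 3173 and 3750 FPKM in the adult sham and injured libraries, and Sox9, the master transcription factor of chondrocytes, was at 42.3, 25.4, 31.2 and 31.4 FPKM. Comp, a matrix protein of mature cartilage, was at 1324, 1984, 7203 and 4611 FPKM. Of the 15 markers, 12 were at least 2-fold lower in adult sham than in young sham cartilage, 9 after rescaling. Matn1, a cartilage matrix protein, was at 1661, 823, 2.65 and 16.8 FPKM, Matn3 at 392, 356, 2.30 and 1.48 FPKM, and Epyc was listed at 0 in adult sham. Genes listed as markers of other cells exceeded Col2a1 in some libraries. Ibsp, a bone matrix protein on the osteoblast list, was at 4136 and 4218 FPKM in the adult libraries, and the globin gene Hba-a2 at 15321 FPKM in young injured and 3584 FPKM in adult sham cartilage. The osteoblast markers summed to 629 and 928 FPKM in the young and 5623 and 5594 FPKM in the adult libraries, sham first. Vcan, Hapln1 and Acan were lower in the adult sham library in which these markers differed, and the part of tissue composition was not tested. After injury 0 of the 15 were higher and 1, Matn1, lower in young mice, and 4 were higher and 0 lower in adult mice, 2 and 0 after rescaling, with a list median of -0.28 for young injury and of 0.42 for adult injury, or 0.34 after rescaling. Skeletal muscle markers summed to 825 and 641 FPKM in the young and 1448 and 413 FPKM in the adult libraries, and erythroid markers to 9677 and 18444 FPKM and to 6956 and 3031 FPKM, sham first.

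Genes that act on hyaluronan and its partners were taken from lists. Of the 8 hyaluronan-degrading genes above 0, 0 were 2-fold changed by young injury. Hexa, a lysosomal hexosaminidase subunit, was at 90.6 and 137 FPKM in young and at 140 and 261 FPKM in adult sham and injured cartilage. Gusb, the lysosomal glucuronidase, was at 26.2 and 47.1 FPKM in young and at 30.4 and 58.8 FPKM in adult cartilage, in the same order. Both act on fragments in the lysosome and were higher in the injured library of each age, short of 2-fold on the log2 scale of FPKM + 1.

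Cemip and Tmem2 were higher in adult than in young sham cartilage. Cemip, which binds and depolymerizes hyaluronan, was at 14.9 FPKM in young sham, then 17.2 after injury, and 38.0 FPKM in adult sham, then 48.5 after injury. Both adult libraries were above both young libraries, by 1.3 between the shams, or 1.72 after rescaling, and 1.44 between the injured libraries on the log2 scale. Tmem2, the cell surface relative of Cemip, was at 8.10, 5.43, 19.2 and 10.8 FPKM across these libraries, with injured below sham at each age. Its log2 ratio was -0.50 after young injury and -0.78 after adult injury, which passed the threshold at -1.10 after rescaling, and 1.15 between the shams, or 1.56 after rescaling. Hyal2, a hyaluronidase of the cell surface, was at 27.3, 25.2, 30.8 and 24.5 FPKM, with a log2 ratio of -0.32 after adult injury, or -0.65 after rescaling. Hyal4, Hyal5, Hyal6 and Spam1 were listed at 0 in every library.

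Of the 10 other hyaluronan receptors and binders above 0, 4 were higher and 1 lower after injury at each age, with 1 higher and 1 lower in the adults after rescaling. Stab1, a scavenger receptor for hyaluronan on macrophages and sinusoidal endothelium, was at 2.31 and 21.5 FPKM in young and at 4.11 and 21.2 FPKM in adult sham and injured cartilage. Layn, the hyaluronan receptor layilin, was at 4.51 and 11.2 FPKM in young and at 8.09 and 20.3 FPKM in adult cartilage, in the same order. Ptx3, a pentraxin that is built into the hyaluronan coat together with TSG-6, was at 0.397 and 2.11 FPKM in young and at 0.642 and 2.55 FPKM in adult cartilage. All 3 stood higher in the injured library of each age. Thbs1, which binds TSG-6 among many partners, was the gene that was lower, at 412 and 120 FPKM in the young and 470 and 55.8 FPKM in the adult libraries, sham first.

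TSG-6 takes its protein chains from the inter-alpha-inhibitor family. Of the 5 such genes above 0, Itih5 was lower after injury at both ages, at 15.5 and 2.15 FPKM in the young and 17.0 and 3.35 FPKM in the adult libraries, sham first, with log2 ratios of -2.39 and -2.05, the latter -2.36 after rescaling. Itih2 was at 18.2, 15.6, 17.5 and 15.8 FPKM across the young, then the adult libraries, sham first. Itih3 was at 1.02 and 3.24 FPKM in the young and at 0.172 and 0.0553 FPKM in the adult libraries, sham first. Its log2 ratio passed 2-fold after young injury, at 1.07, or 1.02 after rescaling, but not with quantile normalization. Between the injured libraries it was -2.01. Itih1 was listed at 0, and Ambp, which encodes the bikunin core, did not pass 0.191 FPKM.

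Of the 14 genes that supply UDP-sugars to the synthases, 0 were changed by young injury, and 2 were higher in adult injured cartilage, 1 after rescaling. These were Ugdh, which makes UDP-glucuronic acid, at 33.9 FPKM in adult sham and 69.4 FPKM after adult injury, and Ugp2, which makes its precursor, at 16.2 and 42.6 FPKM. Their levels in adult injured cartilage lay near those of the young libraries, which were 67.8 and 69.9 FPKM for Ugdh and 43.6 and 43.5 FPKM for Ugp2. In the shams 5 of the 14 were lower and 0 higher in adult cartilage, and 1 was lower and 1 higher after rescaling.

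Of 10 proteases that cut hyalectans, 3 were higher after young injury and 4 after adult injury, and 0 were lower, with the same counts after rescaling. Mmp13, the main collagenase of cartilage, was at 25.3 FPKM in young sham and 474 in young injured cartilage, and 21.2 and 518 FPKM in the adult sham and injured libraries. Mmp3, stromelysin, was at 4.99, 152, 41.2 and 673 FPKM across these libraries, and was higher in adult than in young cartilage for each treatment. Adamts4, an aggrecanase, was at 0.630, 2.84, 0.325 and 2.77 FPKM. Adamts5, the other main aggrecanase, was at 0.896, 1.58, 4.35 and 3.32 FPKM and passed the threshold in neither injury comparison.

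Among the 15 basement membrane partners of perlecan, 3 were higher and 2 lower after young injury, and 4 were higher and 2 lower after adult injury, or 2 and 3 after rescaling. Col18a1, whose product carries endostatin, was at 1.56 and 11 FPKM in young and at 3.18 and 9.88 FPKM in adult sham and injured cartilage. Lamb1, a laminin chain, was at 3.63 and 11 FPKM in young and at 1.71 and 11.3 FPKM in adult cartilage. Col15a1 and Prelp were lower after injury at both ages, with Col15a1 from 38.1 to 10.3 FPKM and from 29.9 to 9.69 FPKM and Prelp from 111 to 44.0 FPKM and from 462 to 183 FPKM, young first. Nid2, a nidogen that links perlecan to laminin networks, was at 53.1 and 37.6 FPKM in young and at 5.05 and 10.8 FPKM in adult cartilage.

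**Figure D4:**
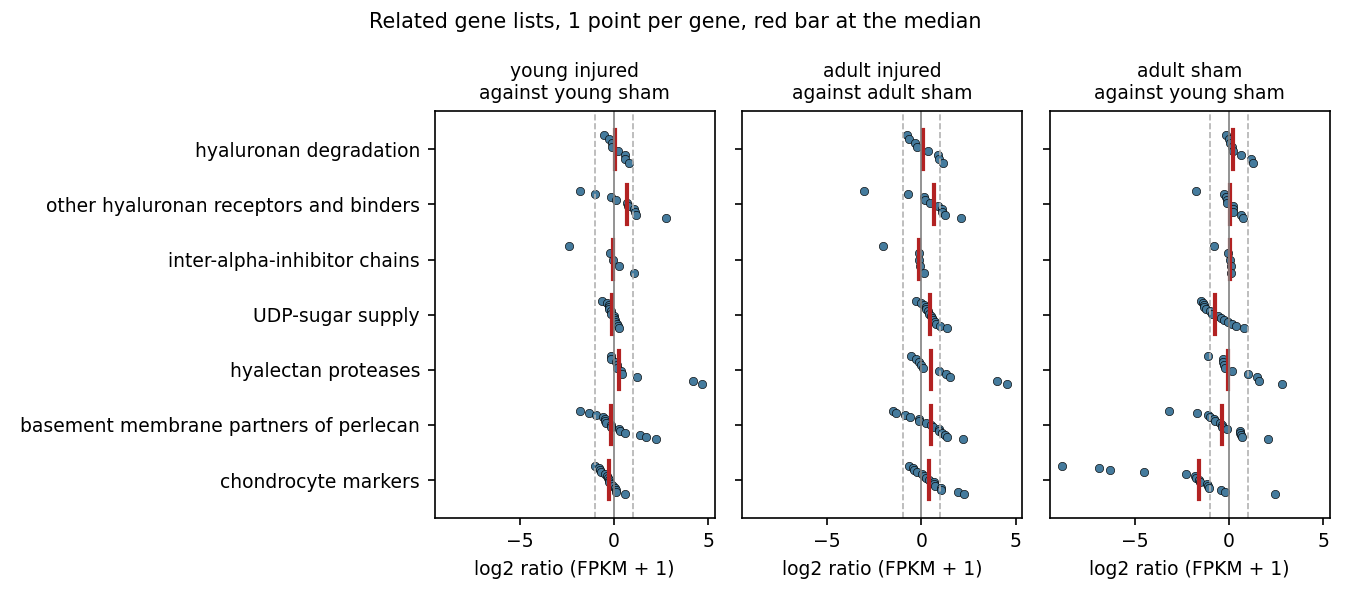
Log2 ratio of FPKM + 1 for each gene of 7 lists, 1 point per gene and a red bar at the median, in 3 comparisons, with dashed lines at 2-fold. Mmp3 and Mmp13 stand apart from the other proteases after injury at both ages, and the chondrocyte markers have a median of -1.59 between the shams, or -1.16 after rescaling.

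For each member that reached a mean of 5 FPKM and a range of 1 on the log2 scale, the genes with the most similar profile over the 4 libraries were found among 8054 genes, by the distance between mean-centred log2 values. With only 4 libraries such likeness is a description. Nearest to Cd44 were Cd84 at a distance of 0.187, Il2rg at 0.192 and Pld4 at 0.202, genes known from leukocytes. Nearest to Has1 were Ier3 at 0.113, Fxyd2 at 0.265 and Cebpd at 0.359, and nearest to Tnfaip6 was Socs3 at 0.397. The nearest gene to Acan was Rnf149 at 0.101, followed by Sdc1 at 0.121, which encodes the proteoglycan syndecan, and Pxn at 0.123. Vcan lay nearest to Idi1 at 0.106, Zfp266 at 0.155 and Hmgcs1 at 0.241, of which Idi1 and Hmgcs1 encode enzymes of the mevalonate pathway. Hapln1 lay nearest to Wbp5 at 0.0494, 1810058I24Rik at 0.110 and Arhgap5 at 0.145, and Hapln3 to Adgrg2 at 0.0878, Fzd8 at 0.0928 and Mrgprf at 0.162.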

How the data were processed

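RNA was extracted from pooled cartilage, and poly-A selected, strand-specific, paired-end libraries were sequenced. The authors deposited FPKM per gene on mm10, which are divided by transcript length and by mapped fragments. The submitters' processing notes name HISAT, HISAT2 2.1.0, STAR, SAMtools and StringTie 1.3.4d without role or order. Fragment counts were not analysed here and the depth is unknown. The lowest FPKM did not give whole fragments, since only 43.5% to 44.9% of low values fell within 0.1 of a whole step, so no counting error is given.

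Log2 ratios of FPKM + 1 were computed for 4 comparisons over the 18181 genes above 0 in any library, and 2-fold or more counted as changed. With 1 library per group no test was made. The members, lists, motifs and ratios were chosen with earlier results of these data known. Named genes are the members, 3 reference genes (Col2a1, Sox9 and Comp), the 3 genes of each list with the largest ratio in the injury and sham comparisons, and the 3 nearest profiles; those named outside this rule, after a look at their values, are Hyal2, Hyal4, Hyal5, Hyal6, Spam1, Itih1, Ambp, Hapln2, Hapln4, Ncan, Neat1, Has2os and Spaca6. The alternatives were pseudocounts of 0.1 and 5 FPKM, a filter on low values, TPM, median-of-ratios and quantile scaling, thresholds of 1.5-fold and 3-fold and, added after the values were seen, young sham in place of adult sham. "After rescaling" means median-of-ratios scaling. Coordinates, promoter windows and gene order are from RefSeq tables of GRCm38.p6, and overlaps and exons from GENCODE. At most 5.07% of any member's 31-base transcript words occurred in another gene. The values of some genes named by this rule are not reported here. Scripts were tested on simulated data. Python 3.11.15, numpy 2.4.6, pandas 2.3.3, scipy 1.17.1 and matplotlib 3.10.9 were used.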

Additional observations from a re-analysis of the deposited data

Results flagged for a closer look

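For 4 members the log2 ratio of injured against sham cartilage had opposite signs in young and adult mice, and with 1 library per group the difference was not tested. For Vcan the young ratio was -0.94 and the adult ratio 1.14, and adult exceeded young by 2.08, or 1.81 after median-of-ratios scaling. For Hapln1 it was -0.28 and 0.44, a difference of 0.72, or 0.40 after median-of-ratios scaling, and for Hspg2 -0.05 and 0.19, a difference of 0.24 that turned to -0.08 after that scaling. For Has3, which stayed under 0.1 FPKM, it was 0.01 and -0.06, a difference of -0.071, or -0.10 after that scaling.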

How the results depend on the processing

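Of the 40 log2 ratios of the 10 members in 4 comparisons, 36 had the same sign under all 5 alternatives that change the values, and of the 12 ratios past 2-fold all 12 had the same sign and 8 stayed past 2-fold. No paired analysis was possible because each group had 1 library. Leaving out a replicate was not run for the same reason. With 1 library per group no alternative separates a difference between groups from a difference between pools.

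With young sham in place of adult sham, the adult injury ratio of Vcan reversed to -1.18, those of Hapln1 and Hspg2, which were under 2-fold, turned from 0.44 to -1.41 and from 0.19 to -0.67, and that of Has3 from -0.06 to 0.02. Acan went from 1.38 to 0.46 and Hapln3 from -1.17 to -0.28, both short of 2-fold. Under this swap 3 members were higher and 2 lower, and 7 related genes were lower. The related genes above 0 were 4 other hyalectans and link proteins, 8 hyaluronan-degrading genes, 10 other receptors and binders and 5 inter-alpha-inhibitor genes. The rest were 14 UDP-sugar genes, 10 hyalectan proteases and 15 perlecan partners. Shares of all genes were computed at 2-fold on the main scale only, so counts at other settings have no share beside them. The main counts, higher and lower, were 2 and 0 for members and 11 and 4 for the related genes in young injury, 5 and 1 and 15 and 4 in adult injury, 0 and 2 and 7 and 11 between the shams, and 1 and 1 and 4 and 4 between the injured libraries. At a 1.5-fold threshold young injury had 2 members lower and 7 related genes lower, adult injury 2 members lower and 25 and 9 related genes, the shams 2 and 5 members and 14 related genes higher, and the injured libraries 2 and 2 members and 11 and 8 related genes. At 3-fold young injury had 1 member and 5 related genes higher, adult injury 3 and 0 members and 4 and 2 related genes, the shams 3 and 3 related genes, and the injured libraries 0 members lower and 2 related genes higher. A pseudocount of 5 FPKM gave 1 member and 5 related genes higher in young injury, 0 members lower and 6 related genes higher in adult injury, and 4 and 4 related genes between the shams. A pseudocount of 0.1 FPKM gave 7 related genes lower in young injury. Median-of-ratios scaling gave 8 related genes higher in adult injury, and 2 members higher with 13 and 4 related genes between the shams. Quantile normalization gave 8 and 7 related genes in adult injury, 2 members higher and 5 related genes lower between the shams, and 0 members lower between the injured libraries. TPM gave 1 member lower in young injury, and 0 members lower and 8 related genes higher between the injured libraries. The cause of these shifts was not tested.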
